A study of Mus musculus with 46 samples.

Results

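White matter (WM) repopulating cells were compared 6 hr after lipopolysaccharide (LPS), a component of the outer membrane of Gram-negative bacteria, with the same kind of cells from mice that received none. The study names injections of buffer or LPS and does not say outright whether those mice had the buffer. The comparison takes the 4 libraries titled AltRepop_6hr against the 4 titled AltRepop_0hr, 8 of the 24 libraries in the table of sorted cells and 8 of the 46 samples of the series. All mice were male C57BL/6, 2 months old at the start of treatment, and those behind the 8 libraries had eaten chow with 600 ppm PLX3397, an inhibitor of the colony stimulating factor 1 receptor on which microglia depend, for 14 days and then drug-free chow for 28 days. LPS (*E. coli* 0111:B4, 0.33 mg/kg) was given into the peritoneum. CD11b+CD45int cells were then sorted from whole hemispheres, so the label white matter names the origin of the returning cells and not a dissected region. The gate keeps myeloid cells with intermediate CD45, and any resident cells that survived the inhibitor are in it too. Control microglia are the same sort from mice on vehicle chow, with 3 libraries at 0 hr and 5 at 6 hr.

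Microglia are the resident macrophages of the brain. LPS is bound by CD14 and by MD-2 on TLR4, which signals through MyD88 to NF-kB and through TRIF to interferon regulatory factors, so that inflammatory cytokines and then interferon-stimulated genes are transcribed. A dose in the periphery reaches microglia mostly through cytokines in the blood and signals from the vessel wall, and it is known to lower the genes by which resting microglia are recognised.

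The libraries held 6316041 to 7791147 reads assigned to genes at 0 hr and 6207118 to 7801734 at 6 hr, as recovered from the steps between low values. On a gene of 2 kb, 1 read was worth 0.0641 to 0.0806 FPKM (fragments scaled to gene length and library size), so that values under about 1 FPKM rest on few reads. Libraries of one time correlated at r = 0.971 to 0.974 (0 hr) and 0.973 to 0.980 (6 hr), and libraries of different times at 0.877 to 0.905 (Pearson's r of log2 values across genes, a description of the libraries). The sorted cells carried the defining genes of microglia. *Tmem119* ranked 11th among all genes at 0 hr, with a mean of 3918 ± 205 FPKM (SD, n = 4), and the summed level of 49 homeostatic microglia genes was 58879 to 72640 FPKM at 0 hr and 30073 to 38746 at 6 hr. The fit shares its estimate of spread with the other groups, and among these replicate 2 of control microglia at 6 hr stood apart, at 60.1 on the second principal component against -18.8 to 8.03 in the other libraries of WM cells and control microglia at 0 and 6 hr. Results that turn on it are given with and without it, an alternative added after seeing the data. Markers of neutrophils and monocytes were present as well, and their values stand beside some of the results that they move with.

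The response spanned the transcriptome. Of 12684 genes tested, 4921 (38.8%) differed between 6 hr and 0 hr at an adjusted p under 0.05 by limma on log2(FPKM + 1), 2446 (19.3%) of them higher and 2475 (19.5%) lower at 6 hr. The counts of calls in the gene lists stand against these shares. Differences above 1 on the log2 scale, which is a doubling, were held by 1004 genes called higher and 948 called lower. Large rises outnumbered large falls. A rise above 4 on the log2 scale was seen in 40 called genes and a fall of that size in 4. The median over all tested genes was -0.005, and the median standard error (SE) of a log2 fold change was 0.21. In 2470 genes (19.5%) every library at 6 hr was above every library at 0 hr, and in 2596 (20.5%) every library was below.

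**Figure D1:**
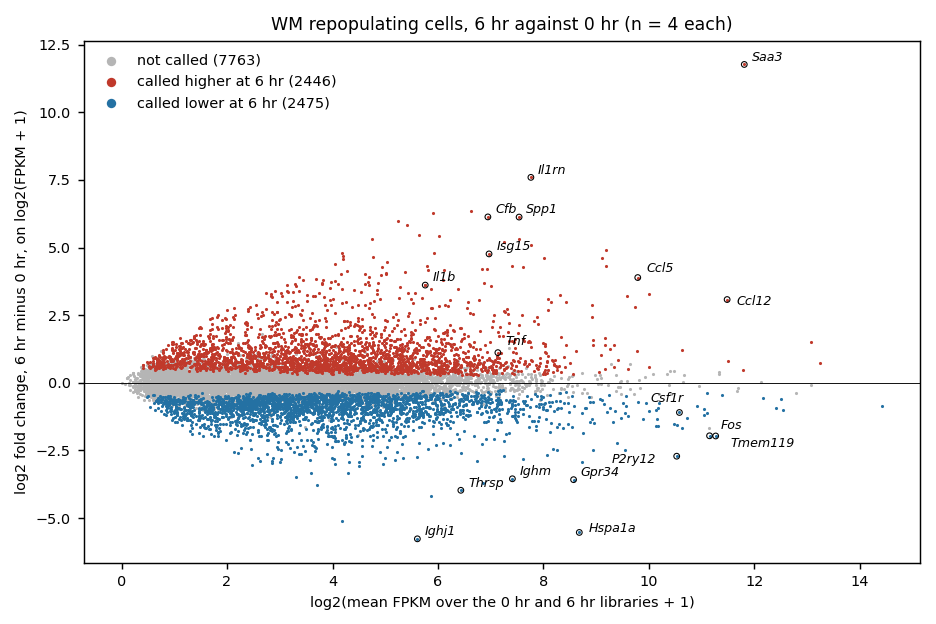
Response of all tested genes at 6 hr. The x axis is the log2 of the mean FPKM over the 8 WM libraries plus 1 and the y axis the log2 fold change, 6 hr minus 0 hr; each point is 1 gene, with those called higher (2446) and lower (2475) by limma in colour and the largest changes named. The rises reach farther from 0 than the falls.

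The 12 genes with the largest rise were at 10.6 FPKM or less in the libraries at 0 hr and at 33.3 FPKM or more in those at 6 hr. *Saa3*, a serum amyloid A protein that macrophages make in the acute phase, measured 1.02, 2.98, 0.484 and 0 FPKM at 0 hr and 9576, 10775, 3548 and 4797 at 6 hr. It became the 5th most abundant gene at 6 hr (log2 fold change 11.77 ± 0.46, adjusted p = 5.04e-15). Values are always given in the order of replicates 1 to 4, and fold changes are 6 hr minus 0 hr ± SE from limma on the log2(FPKM + 1) scale, which understates the change of genes near 0. *Il1rn*, which encodes the interleukin-1 receptor antagonist, measured 0.806, 1.18, 1.19 and 1.19 FPKM at 0 hr and 507, 649, 318 and 250.2 at 6 hr (log2 fold change 7.60 ± 0.51, adjusted p = 1.19e-10). *Irg1*, whose product makes itaconate in activated macrophages, measured 0.157, 0, 0.496 and 0.744 FPKM at 0 hr and 129, 215, 76.2 and 51.7 at 6 hr (log2 fold change 6.29 ± 0.58, adjusted p = 1.09e-08). In each of these genes the lowest library at 6 hr lay far above the highest at 0 hr.

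*Spp1* (osteopontin) measured 5.07, 4.87, 3.95 and 2.63 FPKM at 0 hr and 462, 211, 379 and 411 at 6 hr (log2 fold change 6.13 ± 0.42, adjusted p = 1.49e-10), and was the only one of the 12 in which replicates 1 and 2 were not both above replicates 3 and 4. *Cfb*, factor B of the alternative complement pathway, measured 1.04, 3.29, 3.04 and 1.73 FPKM at 0 hr and 338, 349, 119.7 and 162 at 6 hr (log2 fold change 6.13 ± 0.42, adjusted p = 1.55e-10). *Timp1*, an inhibitor of metalloproteinases, measured 0.609, 0, 0 and 0 FPKM at 0 hr and 110.5, 73.4, 54.9 and 53.6 at 6 hr (log2 fold change 5.98 ± 0.40, adjusted p = 1.19e-10). *Msr1*, the class A scavenger receptor, measured 2.34, 1.54, 3.34 and 0.835 FPKM at 0 hr and 167, 148, 97.1 and 90.5 at 6 hr (log2 fold change 5.41 ± 0.31, adjusted p = 1.18e-11). None of these groups overlapped. The other genes of the 12 were *Ifi205*, *Slfn4* and *Ms4a4a*, which belong to families induced in activated macrophages, *F10* (coagulation factor X) and *Tarm1* (a receptor on myeloid cells), with log2 fold changes of 6.36, 5.84, 5.32, 5.46 and 5.33. *F10* is also in the list of monocyte markers used here. In 11 of the 12 genes, replicates 1 and 2 at 6 hr were both above replicates 3 and 4, as in 710 of 2446 genes called higher (29%) and in 18.2% of all genes tested. This split was looked at after the values were seen. Summed monocyte markers were also higher in these 2 libraries (4197 and 3408 FPKM against 1643 and 1734 FPKM), and their part in the result was not tested. With libraries 3 and 4 alone at 6 hr, an alternative added after seeing the data, *Saa3* still rose by 11.12 and *Il1rn* by 7.09 on the log2 scale.

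Among the 12 largest falls were chaperones, immunoglobulin segments and receptors of resting microglia. *Gpr34*, a lysophospholipid receptor of microglia, measured 578, 689, 764 and 770.0 FPKM at 0 hr and 82.7, 48.1, 44.9 and 60 at 6 hr (log2 fold change -3.58 ± 0.28, adjusted p = 8.49e-10). *Slc46a3*, a lysosomal transporter, measured 101, 97.5, 109.7 and 132 FPKM at 0 hr and 8.10, 3.57, 4.73 and 4.53 at 6 hr (log2 fold change -4.20 ± 0.38, adjusted p = 9.6e-09). *Thrsp*, a gene of lipid synthesis, measured 119.8, 169, 179.6 and 175 FPKM at 0 hr and 10.5, 4.76, 8.38 and 16.3 at 6 hr (log2 fold change -3.97 ± 0.30, adjusted p = 7.13e-10). The 3 genes lost most of their level in each library. *Hspa1a*, the inducible Hsp70, measured 725, 950.3, 736 and 751 FPKM at 0 hr and 12.2, 6.01, 9.67 and 83.6 at 6 hr (log2 fold change -5.53 ± 1.02, adjusted p = 0.000141), and its near-identical neighbour *Hspa1b* measured 18.1, 28, 22.4 and 23.3 FPKM at 0 hr and 0.365, 0.275, 0.0982 and 3.61 at 6 hr. Reads of this pair cannot be divided with certainty, and replicate 4 at 6 hr stood above the other 3 in both. Among the WM libraries at 24 hr *Hspa1a* ranged from 26.6 to 1003 FPKM. Segments of the immunoglobulin heavy chain were also lower. *Ighm* measured 287, 335, 289.5 and 338 FPKM at 0 hr and 30.9, 30.5, 22.4 and 20.6 at 6 hr (log2 fold change -3.55 ± 0.27, adjusted p = 5.33e-10) and *Ighj1* measured 94.6, 111, 75.1 and 94.4 FPKM at 0 hr and 0, 0, 7.81 and 0 at 6 hr (log2 fold change -5.77 ± 0.60, adjusted p = 7.32e-08). *Ighj4*, at 26.2 to 40.4 FPKM at 0 hr, was listed at 0 in each library at 6 hr. Summed lymphocyte markers were 69.2 to 99.6 FPKM at 0 hr and 100.3 to 266.6 FPKM at 6 hr, and their part in the result was not tested. The sum mixes kinds of lymphocyte. Of 12 markers tested 3 rose and 4 fell, and the largest rise was in *Gzma* of natural killer cells (log2 fold change 3.31). The B cell marker *Ms4a1* was at most 1.06 FPKM in the 8 WM libraries. *Kcnk12* (a potassium channel), *Tmem204*, *Tspan18* (a tetraspanin) and *Lpar5* (a lysophosphatidic acid receptor) completed the 12, with log2 fold changes of -3.48, -3.34, -3.32 and -3.07.

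**Figure D2:**
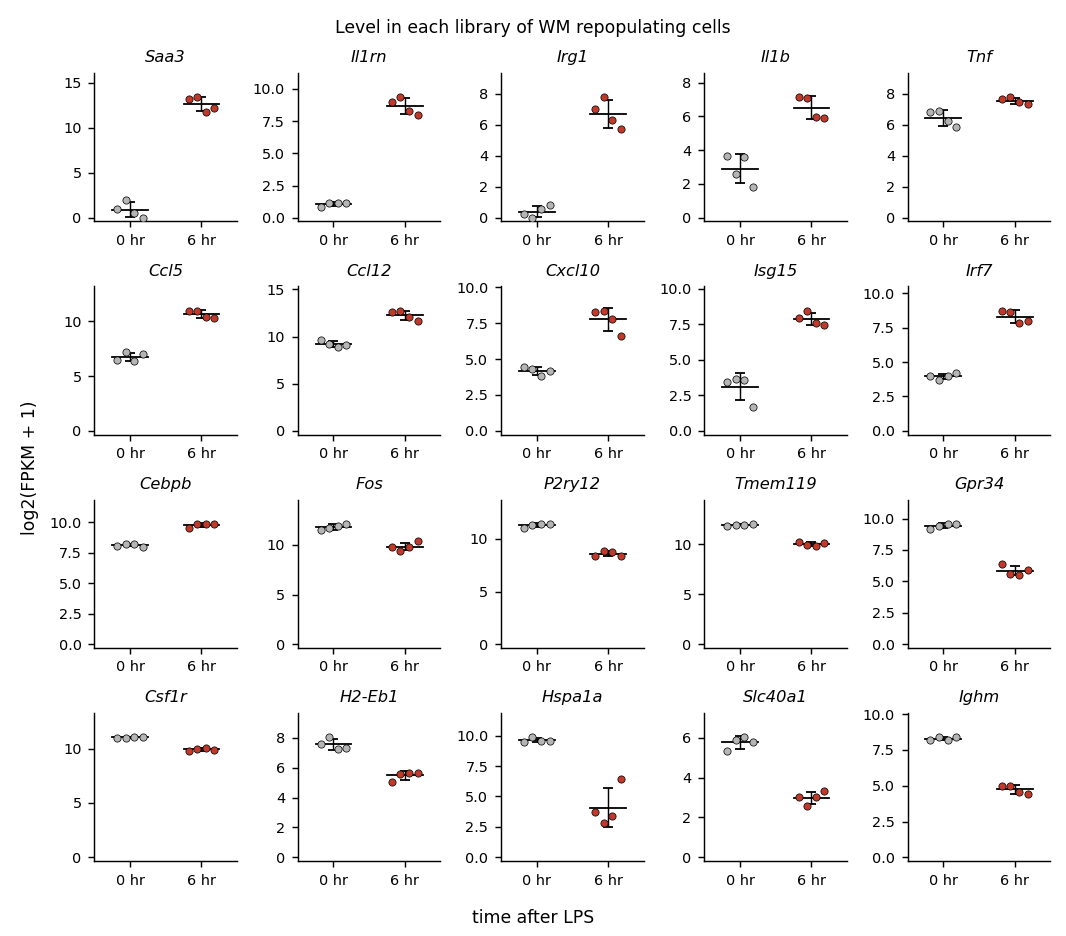
Levels of selected genes in each library. The y axis of each panel is log2(FPKM + 1); each point is 1 library of WM repopulating cells at 0 hr or 6 hr (n = 4 each), the line is the group mean and the error bar the SD. *Saa3* moves from at most 2.98 to at least 3548 FPKM and *P2ry12* from at least 2133 to at most 450 FPKM.

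Of 25 LPS receptors and adaptors, 10 rose and 8 fell, with a median log2 fold change of -0.14. *Cd14*, the co-receptor that delivers LPS, measured 918, 981, 903 and 975 FPKM at 0 hr and 2123, 1990.5, 2791 and 1976 at 6 hr (log2 fold change 1.22 ± 0.38, adjusted p = 0.0126). *Tlr4*, the signaling receptor, measured 20.2, 22.6, 25.6 and 28.2 FPKM at 0 hr and 16.5, 10.5, 11.7 and 11.9 at 6 hr (log2 fold change -0.89 ± 0.29, adjusted p = 0.0169), and this call was lost without replicate 2 at 6 hr (adjusted p = 0.0504 by limma). *Ly96*, which encodes MD-2, measured 71, 57, 79.5 and 78.5 FPKM at 0 hr and 39.8, 34, 29.5 and 34.2 at 6 hr (log2 fold change -1.03 ± 0.18, adjusted p = 7.8e-05). The co-receptor was thus higher and the receptor complex lower, without overlap between the times. *Tlr2*, the receptor of bacterial lipoproteins, measured 155, 117, 144 and 139 FPKM at 0 hr and 401, 416, 423 and 293 at 6 hr (log2 fold change 1.45 ± 0.47, adjusted p = 0.0169), and had an adjusted p of 0.103 with libraries 3 and 4 alone at 6 hr. *Myd88*, the adaptor shared by most Toll-like receptors, rose (log2 fold change 0.85 ± 0.21, adjusted p = 0.00258). *Irak3*, a brake on that pathway, had the largest rise of the list, with 4.02, 4.48, 5.32 and 3.63 FPKM at 0 hr and 22.4, 28.4, 8.78 and 10.9 at 6 hr (log2 fold change 1.66 ± 0.38, adjusted p = 0.00129; adjusted p = 0.0808 with libraries 3 and 4 alone). Without replicate 2 of control microglia at 6 hr the adjusted p by limma was 0.000273 for *Tlr2* and 0.000289 for *Irak3*. With only the 8 WM libraries these were 3.65e-06 and 0.000816. *Cd180*, a TLR4 homolog that restrains TLR4, had the largest fall (log2 fold change -2.14 ± 0.20, adjusted p = 1.32e-08).

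In the NF-kB family, 5 of 22 genes rose and 6 fell (median -0.15), against 19.3% higher and 19.5% lower of all genes. *Nfkbia*, the inhibitor that NF-kB itself induces, measured 1159, 1039, 1089.5 and 1263 FPKM at 0 hr and 1506, 1533, 1519 and 1224 at 6 hr (log2 fold change 0.34 ± 0.25, adjusted p = 0.285), and *Tnfaip3*, another induced inhibitor, measured 40.7, 39.3, 44.4 and 40.4 FPKM at 0 hr and 33.4, 32.1, 25.9 and 29.4 at 6 hr (log2 fold change -0.44 ± 0.57, adjusted p = 0.574). Neither passed the test with all libraries, nor did *Rela* (log2 fold change -0.12 ± 0.23, adjusted p = 0.72) or *Nfkb2* (log2 fold change -0.18 ± 0.40, adjusted p = 0.753). The call for *Nfkbia* depended on the settings. It was called higher by limma with quantile normalization (log2 fold change 0.59, adjusted p = 0.00909), without replicate 2 of control microglia at 6 hr (adjusted p = 0.033) and in a fit of only the 8 WM libraries (adjusted p = 0.0248), and *Tnfaip3* was called lower in the fit of 8 (adjusted p = 0.00721) but not in the former (adjusted p = 0.131). *Nfkb1* measured 47.1, 40.5, 43.8 and 48.8 FPKM at 0 hr and 23.2, 26.5, 21 and 18.3 at 6 hr, lower in each library at 6 hr (log2 fold change -1.0 ± 0.24, adjusted p = 0.00201). *Ikbke*, a kinase that links NF-kB to interferon, had the largest rise, from 0.847, 0.741, 1.64 and 0.842 FPKM at 0 hr and 43.4, 41.3, 20 and 25.9 at 6 hr (log2 fold change 4.01 ± 0.36, adjusted p = 6.59e-09), and *Nfkbid*, a nuclear inhibitor, had the largest fall (log2 fold change -1.20 ± 0.21, adjusted p = 7.26e-05). The consensus site of NF-kB, read on either strand, lay in the promoters of 10 of the 18 genes of this list with a RefSeq promoter (250 bases before to 50 after the start), and in those of 6.05% of all tested genes with one. It was held by 6.21% of genes called higher and 6.72% of genes called lower. Counted over promoters and not genes, 4.51% of all in the table held it. Stretches from 4 promoters that hold the site are shown because they stand before *Nfkbia*, an inhibitor of NF-kB, and before a chemokine, a cytokine and an oxidant gene of the lists that follow, of which *Cxcl10* and *Sod2* were called higher and *Il6* was not called; they come from RefSeq, build GRCm38.p6, 5′ to 3′ on the strand of the gene, with the match in capitals. The promoter of *Cxcl10* holds 2 matches and the others 1, and the match nearest the start is shown. It ends 20 bases before the start in *Nfkbia* (chr12:55492657-55492686, minus strand), 94 in *Cxcl10* (chr5:92348973-92349002, minus), 35 in *Il6* (chr5:30013060-30013089, plus) and 74 in *Sod2* (chr17:13007746-13007775, plus).
Nfkbia: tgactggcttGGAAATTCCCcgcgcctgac
Cxcl10: cggtttacagGGGACTTCCCtcgggttgcg
Il6: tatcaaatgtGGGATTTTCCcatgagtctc
Sod2: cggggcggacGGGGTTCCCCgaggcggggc

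Of 25 cytokine genes tested, 10 rose and 6 fell (median 0.77); with libraries 3 and 4 alone at 6 hr, 5 rose. *Tnf* measured 112, 117, 75 and 56.1 FPKM at 0 hr and 202, 218, 177 and 160.1 at 6 hr (log2 fold change 1.12 ± 0.31, adjusted p = 0.00568), higher in each library at 6 hr but with an adjusted p of 0.0726 on libraries 3 and 4 alone. Its adjusted p by limma was 9.48e-05 without replicate 2 of control microglia at 6 hr and 0.000838 with only the 8 WM libraries. *Il1b* measured 11.6, 5.01, 10.9 and 2.51 FPKM at 0 hr and 139, 136, 60.5 and 59.6 at 6 hr (log2 fold change 3.61 ± 0.60, adjusted p = 3.97e-05). *Il1a* measured 199.9, 222, 207 and 183 FPKM at 0 hr and 247, 203, 199.6 and 152 at 6 hr (log2 fold change -0.04 ± 0.47, adjusted p = 0.963), so the times overlapped. *Il6* measured 6.98, 7.87, 8.98 and 8.62 FPKM at 0 hr and 15.7, 13.6, 16.9 and 12.2 at 6 hr (log2 fold change 0.77 ± 0.36, adjusted p = 0.098) and *Il10* 0, 1.33, 0.295 and 0 FPKM at 0 hr and 1.47, 0.945, 0.740 and 1.23 at 6 hr (log2 fold change 0.66 ± 0.33, adjusted p = 0.12), and neither passed the test with all libraries. *Il6* was called higher by limma in the fit of only the 8 WM libraries (adjusted p = 0.00117) but not without replicate 2 of control microglia at 6 hr (adjusted p = 0.0589). *Il10* was called higher with a pseudocount of 0.1 (log2 fold change 2.09, adjusted p = 0.0431 by limma) and without replicate 2 at 0 hr (0.93, adjusted p = 0.0318). *Il1r2*, the decoy receptor of interleukin-1, measured 0.909, 2.36, 3.44 and 4.01 FPKM at 0 hr and 76.3, 62.4, 42 and 42.5 at 6 hr (log2 fold change 3.99 ± 0.69, adjusted p = 6.98e-05). Like *Il1rn*, it separated the times. *Csf1*, the growth factor of microglia, rose by a small amount (log2 fold change 0.98 ± 0.20, adjusted p = 0.000479). The largest fall was in *Ltb*, lymphotoxin beta, with 20.9, 26.7, 22.4 and 32.1 FPKM at 0 hr and 5.03, 2.68, 3.91 and 5.15 at 6 hr (log2 fold change -2.37 ± 0.35, adjusted p = 8.02e-06).

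Of 21 chemokine genes tested, 12 rose and 1 fell (median 1.44); 15 rose without replicate 2 of control microglia at 6 hr. *Ccl12* measured 780.1, 594, 461 and 538 FPKM at 0 hr and 5972, 6899, 4427 and 3233 at 6 hr (log2 fold change 3.08 ± 0.29, adjusted p = 1.35e-08) and was the 7th most abundant gene at 6 hr. *Ccl5* measured 90.2, 147, 82.4 and 125 FPKM at 0 hr and 1954, 2039, 1366 and 1264 at 6 hr (log2 fold change 3.89 ± 0.45, adjusted p = 2.82e-07), and *Cxcl10*, a chemokine of the interferon response, 20.8, 18.4, 13 and 17.3 FPKM at 0 hr and 310.3, 330.0, 219 and 97.5 at 6 hr (log2 fold change 3.58 ± 0.61, adjusted p = 5.26e-05). Each 6 hr library lay above each 0 hr library for these 3 genes. *Ccl2* was already high at 0 hr, with 639.7, 558, 506 and 433 FPKM at 0 hr and 1756, 1094, 926 and 1097 at 6 hr (log2 fold change 1.16 ± 0.23, adjusted p = 0.00024). *Ccl3* measured 671, 659.8, 519 and 571 FPKM at 0 hr and 1058, 992, 992 and 878 at 6 hr (log2 fold change 0.70 ± 0.46, adjusted p = 0.241) and *Ccl4* 476, 484, 443 and 475 FPKM at 0 hr and 839, 924, 790.3 and 544 at 6 hr (log2 fold change 0.69 ± 0.60, adjusted p = 0.383). Neither gene overlapped between the times, and neither passed the test with all libraries. In control microglia at 6 hr, replicate 2 measured 10342 FPKM of *Ccl3* and 20471 FPKM of *Ccl4*, against 822 to 1334 and 717 to 1486 FPKM in the other 4. Without that library both were called higher by limma (adjusted p = 0.00254 and 0.00518). *Ccl24*, an eosinophil attractant, fell (log2 fold change -1.71 ± 0.32, adjusted p = 0.000151). Of 19 chemotactic receptors 7 rose and 4 fell. *Fpr2*, the formyl peptide receptor, measured 2.72, 3.42, 1.98 and 1.29 FPKM at 0 hr and 42.2, 80.5, 35.9 and 20.1 at 6 hr (log2 fold change 3.64 ± 0.44, adjusted p = 5.23e-07), and *Cx3cr1*, the fractalkine receptor by which microglia sense neurons, 2242, 2356, 2385 and 2649 FPKM at 0 hr and 966, 703, 709.5 and 685 at 6 hr (log2 fold change -1.66 ± 0.24, adjusted p = 5.38e-06). *Cxcr3*, the receptor of *Cxcl10*, fell from low levels (log2 fold change -1.89 ± 0.37, adjusted p = 0.000265).

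Interferon-stimulated genes rose as a group. Of 65 tested, 60 rose and 0 fell by limma, 0 had an unadjusted p under 0.05 in the lower direction, and the median log2 fold change was 1.89 against -0.005 over all genes. In 61 of the 65 every library at 6 hr was above every library at 0 hr. *Isg15*, a ubiquitin-like protein, measured 9.86, 11.7, 10.9 and 2.21 FPKM at 0 hr and 244, 351, 188 and 177 at 6 hr (log2 fold change 4.77 ± 0.35, adjusted p = 5.07e-10), the largest rise of the list. *Irf7*, the factor that amplifies interferon production, measured 14.7, 11.8, 14.8 and 17 FPKM at 0 hr and 426, 399.7, 222 and 249.5 at 6 hr (log2 fold change 4.34 ± 0.37, adjusted p = 3.59e-09). *Ifit1*, which binds viral RNA, measured 2.88, 2.04, 4.38 and 3.60 FPKM at 0 hr and 53.1, 65.5, 49.8 and 43.2 at 6 hr (log2 fold change 3.69 ± 0.34, adjusted p = 1.28e-08). *Rsad2* (viperin) measured 2.36, 2.55, 3.39 and 2.58 FPKM at 0 hr and 39.7, 75.4, 43.1 and 29.2 at 6 hr (log2 fold change 3.61 ± 0.43, adjusted p = 5.01e-07) and *Gbp2*, a GTPase that acts on membranes of pathogens, 6.35, 10.3, 8.74 and 8.52 FPKM at 0 hr and 122, 139, 85.3 and 78.6 at 6 hr (log2 fold change 3.47 ± 0.46, adjusted p = 2.27e-06). The groups were far apart in all 5 genes. *Ifit3* rose by less (log2 fold change 2.25 ± 0.28, adjusted p = 8.42e-07), and its reads cannot be divided with certainty from those of its copy *Ifit3b*. Replicates 1 and 2 at 6 hr were both above replicates 3 and 4 in 45 of the 65 genes, and with libraries 3 and 4 alone 58 rose. The summed monocyte markers were also higher in replicates 1 and 2 (4197 and 3408 against 1643 and 1734 FPKM) and rose with these genes, and their part in the result was not tested.

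The receptors and signal carriers of interferon did not share this direction. Of 18 tested, 5 rose and 7 fell (median -0.26), against 19.3% higher and 19.5% lower of all genes. *Stat3*, a target of interleukin-6 and interleukin-10 receptors, measured 52.2, 68.8, 63.3 and 67.3 FPKM at 0 hr and 129, 222, 212 and 133 at 6 hr (log2 fold change 1.41 ± 0.20, adjusted p = 5.36e-06), the largest rise. *Irf8*, a lineage factor of microglia, measured 296, 305, 281 and 329 FPKM at 0 hr and 195, 167, 163 and 179 at 6 hr (log2 fold change -0.78 ± 0.23, adjusted p = 0.00843). *Tmem173*, which encodes the DNA sensor adaptor STING, measured 367, 413, 416 and 416 FPKM at 0 hr and 208, 239, 214 and 167 at 6 hr (log2 fold change -0.97 ± 0.16, adjusted p = 2.68e-05). Both were lower in each library at 6 hr. The core letters of the interferon-stimulated response element, GAAANNGAAA on either strand, were found in the promoters of 28 of the 47 interferon-stimulated genes with a RefSeq promoter. Of all tested genes with a promoter 3.89% held the motif in one, as did 7.12% of genes called higher, 2.87% of genes called lower and 3.20% of genes not called. Counted over promoters and not genes, 3.44% of all 32851 in the table held it. The 4 stretches are shown because they stand before genes with rises of 3.47 to 4.77 on the log2 scale; capitals mark the match, in the gene's strand and the same build. The promoter of *Isg15* holds 3 matches, that of *Ifit1* 2 and the others 1; the stretch is centred on the match nearest the start, and in *Isg15* the capitals run over 2 overlapping matches. The nearest match ends 57 bases before the start of *Isg15* (chr4:156200865-156200894, minus strand), 76 before *Ifit1* (chr19:34640794-34640823, plus), 111 before *Rsad2* (chr12:26456553-26456582, minus) and 50 before *Gbp2* (chr3:142620594-142620623, plus). A match describes letters in the window and not binding.
Isg15: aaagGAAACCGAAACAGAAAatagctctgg
Ifit1: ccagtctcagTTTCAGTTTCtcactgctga
Rsad2: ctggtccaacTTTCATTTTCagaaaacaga
Gbp2: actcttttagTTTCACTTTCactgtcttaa

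**Figure D3:**
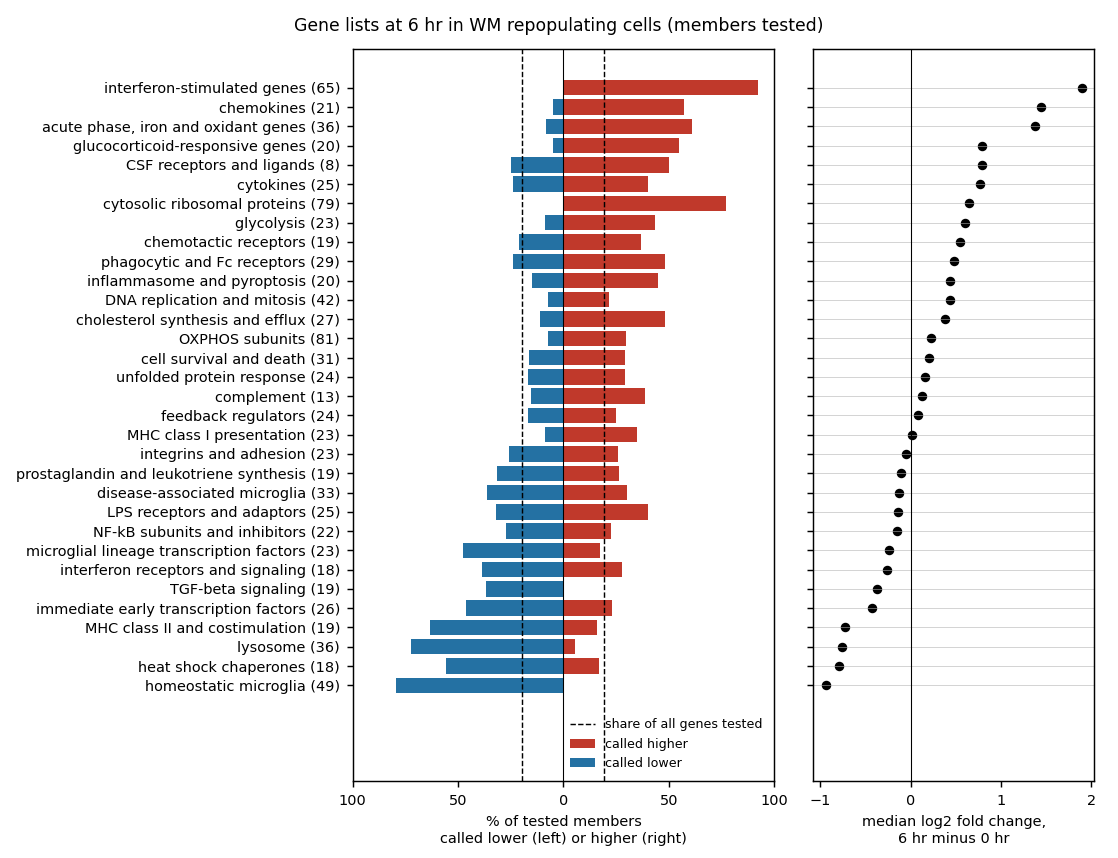
Calls in each gene list. Bars show the percent of tested members (their number stands after each list) called higher and lower at 6 hr in WM repopulating cells (limma, adjusted p under 0.05), the dashed lines the shares among all genes (19.3% and 19.5%) and the points the median log2 fold change of each list. Interferon-stimulated and ribosomal protein genes lie on the higher side (60 of 65 and 61 of 79), homeostatic and lysosomal genes on the lower (39 of 49 and 26 of 36).

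Of 26 immediate early genes tested, 12 fell, 6 rose and 8 were not called (median -0.43); with libraries 3 and 4 alone at 6 hr, 5 fell. *Fos* measured 2810.4, 3225, 3897 and 4488 FPKM at 0 hr and 859, 679, 901 and 1318 at 6 hr (log2 fold change -1.96 ± 0.38, adjusted p = 0.000212). *Jun*, its partner in AP-1, measured 2626, 2209, 2013 and 1963 FPKM at 0 hr and 645, 638, 716 and 1041 at 6 hr (log2 fold change -1.55 ± 0.44, adjusted p = 0.00651), with an adjusted p of 0.0764 on libraries 3 and 4 alone. The adjusted p of *Jun* by limma was 0.000279 without replicate 2 of control microglia at 6 hr and 8.65e-06 with only the 8 WM libraries. *Atf3*, which limits Toll-like receptor responses, measured 315, 293, 313 and 379.9 FPKM at 0 hr and 87.4, 126, 147 and 137 at 6 hr (log2 fold change -1.40 ± 0.30, adjusted p = 0.000595). No library at 6 hr reached the 0 hr range in these 3 genes. At 0 hr *Fos* ranked 13th among all genes, with a mean of 3605 FPKM. *Egr1* did not pass the test (log2 fold change -0.41 ± 0.34, adjusted p = 0.356). *Cebpb*, a factor of acute phase transcription, measured 266, 302, 288 and 252 FPKM at 0 hr and 714, 926, 932 and 933 at 6 hr (log2 fold change 1.65 ± 0.30, adjusted p = 0.00011), and *Ier3* had the largest rise (log2 fold change 1.84 ± 0.23, adjusted p = 9.2e-07). Among feedback regulators 6 of 24 were higher and 4 lower, so that 41.7% were called against 38.8% of all genes (19.3% higher and 19.5% lower). *Zfp36*, which destabilises cytokine messages, measured 1763, 1549, 1612 and 1589.8 FPKM at 0 hr and 601, 647, 596 and 748 at 6 hr (log2 fold change -1.33 ± 0.27, adjusted p = 0.000333), and *Dusp1*, a phosphatase of MAP kinases, 2185, 2724, 2809 and 3381 FPKM at 0 hr and 1363, 1144, 1621 and 1594 at 6 hr (log2 fold change -0.95 ± 0.22, adjusted p = 0.00109). *Socs3* overlapped, at 62.4, 60.3, 67.2 and 83 FPKM at 0 hr and 67.2, 107, 66.2 and 65.3 at 6 hr (log2 fold change 0.14 ± 0.53, adjusted p = 0.862), whereas *Socs2* rose (log2 fold change 2.22 ± 0.40, adjusted p = 0.000123).

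Genes that respond to glucocorticoids, the stress hormones released after LPS, were higher in 11 of 20 and lower in 1 (median 0.79). *Fkbp5*, a co-chaperone of the receptor, measured 19.5, 18.7, 22.2 and 19.4 FPKM at 0 hr and 128, 157, 189 and 199 at 6 hr (log2 fold change 3.0 ± 0.35, adjusted p = 4.16e-07). *Mt2*, a metallothionein, measured 2.68, 7.40, 5.78 and 0.923 FPKM at 0 hr and 39.9, 98.8, 201 and 80.6 at 6 hr (log2 fold change 4.34 ± 0.82, adjusted p = 0.000167). *Tsc22d3* (GILZ) measured 77.4, 106, 112 and 121 FPKM at 0 hr and 165, 163, 163 and 211 at 6 hr (log2 fold change 0.76 ± 0.25, adjusted p = 0.0192), and its call was lost without replicate 1 at 0 hr (adjusted p = 0.073) or replicate 4 at 6 hr (adjusted p = 0.0606 by limma). The receptor itself, *Nr3c1*, measured 33.8, 39.4, 38.1 and 35 FPKM at 0 hr and 33.6, 41.4, 39.5 and 43.6 at 6 hr (log2 fold change 0.11 ± 0.14, adjusted p = 0.574), so the times overlapped.

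Genes by which resting microglia are recognised fell together. Of 49 homeostatic genes, 39 fell and 0 rose, with 0 higher at an unadjusted p under 0.05 by limma and a median of -0.94. In 42 of them every 6 hr library was below every 0 hr library. *P2ry12*, the ADP receptor that guides microglial processes, measured 2133, 2542, 2797 and 2765 FPKM at 0 hr and 334, 450.1, 438 and 342 at 6 hr (log2 fold change -2.71 ± 0.23, adjusted p = 2.49e-09). *Tmem119* measured 3688, 3862, 3941 and 4182 FPKM at 0 hr and 1149, 925, 872 and 1086 at 6 hr (log2 fold change -1.97 ± 0.28, adjusted p = 4.75e-06). *Siglech*, a lectin, measured 636, 679.7, 786 and 843 FPKM at 0 hr and 223, 284, 292 and 239 at 6 hr (log2 fold change -1.50 ± 0.17, adjusted p = 2.98e-07). In these 3 genes the highest library at 6 hr was far below the lowest at 0 hr. *Sall1*, the transcription factor that maintains microglial identity, measured 77.9, 73.7, 81.7 and 73.4 FPKM at 0 hr and 23.4, 28.5, 27.6 and 29.2 at 6 hr (log2 fold change -1.47 ± 0.16, adjusted p = 1.62e-07). *Trem2*, a lipid receptor, measured 2295, 2305, 2354 and 2655 FPKM at 0 hr and 838, 1032, 1161 and 927 at 6 hr (log2 fold change -1.29 ± 0.13, adjusted p = 2.42e-08), and *Csf1r*, the target of PLX3397, 2039, 1996, 2142 and 2151 FPKM at 0 hr and 879, 1022, 1061 and 939.9 at 6 hr (log2 fold change -1.10 ± 0.19, adjusted p = 5.35e-05). In bulk libraries, fewer cells of a type and less RNA per cell cannot be told apart. Summed monocyte markers rose from 169 to 476 FPKM at 0 hr to 1643 to 4197 FPKM at 6 hr while these genes fell, and their part in the result was not tested. With libraries 3 and 4 alone at 6 hr, 35 of the homeostatic genes were called lower.

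Of 23 lineage transcription factors 11 fell and 4 rose (median -0.24). *Mef2c* measured 86.7, 88.2, 86.9 and 87.9 FPKM at 0 hr and 46.9, 47.9, 50.8 and 54.3 at 6 hr (log2 fold change -0.80 ± 0.20, adjusted p = 0.0029). *Spi1*, which encodes PU.1, measured 557, 592, 589 and 644 FPKM at 0 hr and 796, 758, 708 and 634 at 6 hr (log2 fold change 0.28 ± 0.21, adjusted p = 0.311; adjusted p = 0.0419 in the fit of only the 8 WM libraries), with overlap between the times. *Tfec* rose from 0.305, 0.534, 0 and 1.30 FPKM at 0 hr and 22.4, 15.6, 10.6 and 11.8 at 6 hr (log2 fold change 3.40 ± 0.36, adjusted p = 8.99e-08). Of 19 TGF-beta genes 7 fell and 0 rose by limma (median -0.37), with 1 higher at an unadjusted p under 0.05, so that 36.8% were called lower, against 19.5% of all genes. Both receptors fell, *Tgfbr1* by 0.71 and *Tgfbr2* by 0.55 on the log2 scale, and the co-receptor *Eng* measured 50.2, 59.4, 62.1 and 66.2 FPKM at 0 hr and 13.3, 22.3, 15.3 and 13.1 at 6 hr (log2 fold change -1.85 ± 0.26, adjusted p = 4.29e-06). Of 8 CSF receptors and ligands 4 rose and 2 fell. *Csf2rb*, the shared chain of the GM-CSF and interleukin-3 receptors, measured 16, 15.1, 17.4 and 14.3 FPKM at 0 hr and 52.5, 67.7, 61.4 and 63.6 at 6 hr (log2 fold change 1.90 ± 0.16, adjusted p = 3.38e-09), and *Csf3r* fell (log2 fold change -0.99 ± 0.17, adjusted p = 7.1e-05).

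Of 33 genes of disease-associated microglia tested, 10 rose and 12 fell (median -0.13). *Spp1*, described above, was the largest rise. *Apoe*, the main lipid carrier of the brain, measured 3291, 3637, 2775 and 2267 FPKM at 0 hr and 1516, 1692, 936 and 1349 at 6 hr (log2 fold change -1.13 ± 0.24, adjusted p = 0.000668). *Axl*, a receptor for dying cells, measured 35.1, 27.5, 28.9 and 30.8 FPKM at 0 hr and 12.8, 22.2, 10.1 and 16.5 at 6 hr (log2 fold change -1.0 ± 0.27, adjusted p = 0.00513), and both fell without overlap. *Clec7a* (log2 fold change -0.34 ± 0.26, adjusted p = 0.327), *Itgax* (log2 fold change -0.12 ± 0.24, adjusted p = 0.728) and *Cst7* (log2 fold change 0.50 ± 0.25, adjusted p = 0.113) did not pass the test with all libraries; *Cst7* was called higher by limma without replicate 3 at 6 hr (adjusted p = 0.0495). The largest fall was in *Cadm1*, an adhesion molecule, with 61.7, 81.2, 72.7 and 85.3 FPKM at 0 hr and 15.2, 30, 32.8 and 20.7 at 6 hr (log2 fold change -1.62 ± 0.22, adjusted p = 3.25e-06).

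For MHC class I presentation, 8 of 23 genes rose and 2 fell (median 0.02), so that 43.5% were called against 38.8% of all genes (19.3% higher and 19.5% lower). *B2m*, the light chain, measured 3900.3, 4421, 4405 and 4866 FPKM at 0 hr and 4832, 5158, 4276 and 3664 at 6 hr (log2 fold change 0.02 ± 0.17, adjusted p = 0.941), with overlapping times. *Tap1*, the peptide transporter, measured 31, 30.5, 27.5 and 29.4 FPKM at 0 hr and 76.3, 114, 79.1 and 61.1 at 6 hr (log2 fold change 1.42 ± 0.30, adjusted p = 0.000585), and *Nlrc5*, the activator of class I genes, 2.44, 3.01, 1.81 and 2.53 FPKM at 0 hr and 10.4, 13.6, 9.22 and 10.3 at 6 hr (log2 fold change 1.78 ± 0.21, adjusted p = 4.04e-07). *H2-T22* had the largest rise (log2 fold change 1.86 ± 0.26, adjusted p = 4.68e-06), with reads that related class I genes may share. For MHC class II and costimulation, 12 of 19 fell and 3 rose (median -0.73). *H2-Eb1* measured 193, 266, 151 and 161 FPKM at 0 hr and 32.5, 47.4, 49 and 48.5 at 6 hr (log2 fold change -2.08 ± 0.28, adjusted p = 2.39e-06). *Cd74*, the invariant chain, measured 909.6, 1214, 753 and 789 FPKM at 0 hr and 538, 542, 609 and 489 at 6 hr (log2 fold change -0.73 ± 0.26, adjusted p = 0.0309), and this call was lost without replicate 2 at 0 hr (adjusted p = 0.111) and without 4 of the other libraries. The class II activator *Ciita* was low and overlapped, at 1.98, 4.20, 1.33 and 2.23 FPKM at 0 hr and 1.24, 1.41, 1.45 and 1.33 at 6 hr (log2 fold change -0.48 ± 0.26, adjusted p = 0.151). The 3 that rose were the costimulators *Cd86* (log2 fold change 0.85 ± 0.22, adjusted p = 0.00314) and *Cd40* (log2 fold change 2.86 ± 0.58, adjusted p = 0.000365) and the checkpoint ligand *Cd274* (PD-L1; log2 fold change 1.96 ± 0.39, adjusted p = 0.000339). *Cd40* measured 2.58, 3.28, 3.38 and 1.15 FPKM at 0 hr and 25.2, 29.3, 21.6 and 21.6 at 6 hr, a clear separation.

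Of 29 phagocytic and Fc receptors, 14 rose and 7 fell (median 0.48). In 14 of the 29 and in 14 of the 23 class I genes, replicates 1 and 2 at 6 hr were both above replicates 3 and 4. Both were below in 0, and 18.2% of all genes tested had them above. Summed monocyte markers were split the same way, and their part in the result was not tested. *Fcgr4* measured 34.6, 41.5, 39.4 and 46.6 FPKM at 0 hr and 308, 269, 224 and 242 at 6 hr (log2 fold change 2.65 ± 0.15, adjusted p = 1.18e-11) and *Fcgr1* 158, 159, 173 and 169 FPKM at 0 hr and 402, 364, 339 and 333 at 6 hr (log2 fold change 1.12 ± 0.14, adjusted p = 1.29e-06). *Clec4e* (Mincle), which senses glycolipids, measured 1.29, 0.0629, 1.84 and 0.764 FPKM at 0 hr and 41.9, 61.5, 19.5 and 19.6 at 6 hr (log2 fold change 4.13 ± 0.40, adjusted p = 2.03e-08); it is in the monocyte marker list too. *Trem2* had the largest fall of this list. In the complement list 5 of 13 rose and 2 fell. *C3*, the central component, measured 4.12, 2.56, 4.83 and 2.55 FPKM at 0 hr and 31.7, 21.3, 11.5 and 13.4 at 6 hr (log2 fold change 2.11 ± 0.37, adjusted p = 8.11e-05) and *C4b* 0.754, 1.03, 0.0476 and 2.31 FPKM at 0 hr and 2.95, 3.32, 2.56 and 3.97 at 6 hr (log2 fold change 1.15 ± 0.30, adjusted p = 0.00383), and *C1qa*, which starts the classical pathway and was among the most abundant genes, measured 7491, 7893, 7871 and 8771 FPKM at 0 hr and 5568, 6112, 6927 and 5875 at 6 hr (log2 fold change -0.39 ± 0.23, adjusted p = 0.198). Every library of *C1qa* at 6 hr was below every library at 0 hr, and it was called lower by limma in the fit of only the 8 WM libraries (adjusted p = 0.0194). In the inflammasome list 9 of 20 rose and 3 fell. *Casp4*, which encodes caspase-11, the sensor of LPS in the cytosol, measured 22.1, 21, 29.6 and 20.4 FPKM at 0 hr and 89.9, 115, 102 and 77.4 at 6 hr (log2 fold change 2.0 ± 0.27, adjusted p = 3.17e-06). *Nlrp3* rose by less, with 15.4, 13.9, 13.9 and 12.8 FPKM at 0 hr and 20.8, 22.9, 21.2 and 24.9 at 6 hr (log2 fold change 0.64 ± 0.19, adjusted p = 0.0103), and *P2rx7*, the ATP channel that triggers it, fell (log2 fold change -0.98 ± 0.15, adjusted p = 1.08e-05).

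Acute phase, iron and oxidant genes were higher in 22 of 36 and lower in 3 (median 1.37). *Sod2*, the mitochondrial superoxide dismutase, measured 12.2, 16.6, 13.5 and 18.5 FPKM at 0 hr and 249.6, 319, 164 and 138 at 6 hr (log2 fold change 3.69 ± 0.30, adjusted p = 1.8e-09). *Slc40a1* (ferroportin), the exporter of iron, measured 39.1, 58.8, 64.8 and 55 FPKM at 0 hr and 7.02, 4.98, 7.02 and 9.06 at 6 hr (log2 fold change -2.79 ± 0.26, adjusted p = 1.34e-08). *Lcn2*, which withholds iron from bacteria, measured 58.3, 56.2, 136 and 47.5 FPKM at 0 hr and 529, 537, 247 and 274 at 6 hr (log2 fold change 2.44 ± 0.52, adjusted p = 0.000609), and is also a neutrophil gene. *Nos2*, the inducible nitric oxide synthase, rose within low levels, at 0.136, 0, 0.161 and 0.129 FPKM at 0 hr and 1.28, 3.48, 1.18 and 1.09 at 6 hr (log2 fold change 1.24 ± 0.24, adjusted p = 0.000241). Among prostaglandin and leukotriene genes 5 of 19 rose and 6 fell, against 19.3% higher and 19.5% lower of all genes. *Ptges*, the inducible synthase of prostaglandin E2, measured 0, 0.260, 0.388 and 0 FPKM at 0 hr and 9.28, 17.1, 4.50 and 2.39 at 6 hr (log2 fold change 2.74 ± 0.42, adjusted p = 1.51e-05), *Ptgs2* (COX-2) measured 1.24, 1.45, 0.805 and 1.55 FPKM at 0 hr and 4.17, 1.86, 2.36 and 3.22 at 6 hr and did not pass the test with all libraries (log2 fold change 0.76 ± 0.32, adjusted p = 0.0654; adjusted p = 0.0062 without replicate 2 of control microglia at 6 hr, 0.0155 with only the 8 WM libraries and 0.0365 with a pseudocount of 0.1), and *Pla2g15*, a lysosomal phospholipase, fell (log2 fold change -1.75 ± 0.36, adjusted p = 0.000413).

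Genes of glucose use were higher in 10 of 23 and lower in 2 (median 0.60). *Ldha*, which makes lactate, measured 74.7, 89.5, 86.6 and 85.8 FPKM at 0 hr and 290.3, 242, 249 and 223 at 6 hr (log2 fold change 1.56 ± 0.17, adjusted p = 9.61e-08), *Pfkp*, a phosphofructokinase, 2.58, 3.10, 6.35 and 4.22 FPKM at 0 hr and 25.7, 21.9, 17.3 and 15.8 at 6 hr (log2 fold change 2.10 ± 0.32, adjusted p = 1.3e-05) and *Hk2* 77.4, 82.4, 83.2 and 89.8 FPKM at 0 hr and 92.3, 66.7, 82.1 and 91.4 at 6 hr (log2 fold change -0.01 ± 0.15, adjusted p = 0.967). The first 2 separated the times and *Hk2* did not. *Slc2a5*, the fructose transporter of microglia, had the largest fall of the list, with 419.8, 490.4, 452 and 488 FPKM at 0 hr and 60.9, 86.5, 85.4 and 58.5 at 6 hr (log2 fold change -2.67 ± 0.28, adjusted p = 8.63e-08). *Hif1a* rose by 0.87 on the log2 scale with all libraries (adjusted p = 0.00307, and 0.0603 with libraries 3 and 4 alone). Its adjusted p by limma was 0.000258 without replicate 2 of control microglia at 6 hr. For cholesterol synthesis and efflux, 13 of 27 rose and 3 fell; without replicate 1 at 6 hr 7 rose, and with libraries 3 and 4 alone 6. *Nr1h3* (LXR alpha) measured 1.07, 0.778, 2.08 and 0.378 FPKM at 0 hr and 51.5, 10.3, 9.22 and 18.1 at 6 hr (log2 fold change 3.22 ± 0.58, adjusted p = 0.000107), and the exporter *Abcg1* 121, 133, 133 and 141 FPKM at 0 hr and 60.5, 54.2, 63.7 and 46.9 at 6 hr (log2 fold change -1.22 ± 0.27, adjusted p = 0.00103), while *Abca1* did not pass the test (log2 fold change 0.23 ± 0.22, adjusted p = 0.444). Subunits of oxidative phosphorylation were higher in 24 of 81 and lower in 6, so that 37.0% of the list was called against 38.8% of all genes; 15 rose without replicate 1 at 0 hr, 14 without replicate 1 or replicate 3 at 6 hr, and 8 with libraries 3 and 4 alone.

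Of 79 cytosolic ribosomal protein genes, 61 rose and 0 fell by limma, against 19.3% and 19.5% of all genes, with 0 lower at an unadjusted p under 0.05 and a median of 0.64. *Rps12* had the largest rise, with 4.19, 3.97, 7.44 and 1.49 FPKM at 0 hr and 16.6, 17.3, 18.9 and 19.6 at 6 hr (log2 fold change 1.98 ± 0.33, adjusted p = 4.16e-05); many of these genes have pseudogene copies, which makes the division of their reads uncertain. Of 36 lysosomal genes, 26 fell and 2 rose (median -0.76). *Ctsd*, the cathepsin D protease, measured 7562, 7697, 8141 and 8518 FPKM at 0 hr and 3526, 4574, 4097 and 3767 at 6 hr (log2 fold change -1.0 ± 0.20, adjusted p = 0.000327), and *Mcoln1*, the calcium channel of lysosomes, 38.6, 37.8, 35.5 and 44.9 FPKM at 0 hr and 15.2, 10.9, 10.1 and 13.4 at 6 hr (log2 fold change -1.60 ± 0.21, adjusted p = 1.89e-06). *Ctss*, cathepsin S, measured 7762, 8942, 8866 and 9953 FPKM at 0 hr and 8325, 8381, 9212 and 7918 at 6 hr (log2 fold change -0.07 ± 0.14, adjusted p = 0.738), so that the second most abundant gene at 0 hr overlapped; with quantile normalization it was called lower by limma (log2 fold change -0.54, adjusted p = 0.0168). Of 18 heat shock chaperones 10 fell and 3 rose (median -0.80). The mitochondrial chaperone *Hspa9* rose (log2 fold change 1.04 ± 0.13, adjusted p = 1.51e-06), while *Hsp90aa1* fell (log2 fold change -0.99 ± 0.27, adjusted p = 0.00572; adjusted p = 0.0753 with libraries 3 and 4 alone). In the unfolded protein response 7 of 24 were higher and 4 lower, so that 45.8% were called against 38.8% of all genes (19.3% higher and 19.5% lower). *Asns*, the asparagine synthetase of the amino acid response, measured 1.27, 1.64, 1.53 and 1.60 FPKM at 0 hr and 35.7, 30.4, 31.4 and 25.6 at 6 hr (log2 fold change 3.65 ± 0.26, adjusted p = 3.39e-10), and *Sdf2l1*, a chaperone of the endoplasmic reticulum, fell (log2 fold change -0.82 ± 0.23, adjusted p = 0.00762).

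Of 42 genes of DNA replication and mitosis 9 rose and 3 fell, so that 28.6% were called against 38.8% of all genes. *Mki67*, the proliferation marker, measured 1.21, 0.817, 1.47 and 1.27 FPKM at 0 hr and 3.30, 2.22, 1.42 and 1.82 at 6 hr (log2 fold change 0.52 ± 0.26, adjusted p = 0.118), and *Ccnd2*, a cyclin of G1, 3.05, 5.51, 3.41 and 3.16 FPKM at 0 hr and 16.6, 14, 17.6 and 13.4 at 6 hr (log2 fold change 1.80 ± 0.32, adjusted p = 7.88e-05). Of 31 genes of survival and death 9 rose and 5 fell, which is 45.2% called, against 38.8% of all genes. *Mlkl*, the executor of necroptosis, measured 1.04, 0.0930, 3.32 and 0.377 FPKM at 0 hr and 28.4, 36.1, 15.1 and 18.9 at 6 hr (log2 fold change 3.67 ± 0.47, adjusted p = 1.49e-06), and *Bbc3*, which encodes the apoptotic PUMA, 31.6, 29.1, 25.4 and 29.4 FPKM at 0 hr and 11.5, 15.6, 10.5 and 13.5 at 6 hr (log2 fold change -1.13 ± 0.32, adjusted p = 0.00777). Of 23 integrins and adhesion genes 6 rose and 6 fell, which is 52.2% called, against 19.3% higher and 19.5% lower of all genes. *Itgam*, which encodes the CD11b of the gate, measured 132, 119, 132 and 134 FPKM at 0 hr and 159.7, 158, 127 and 136 at 6 hr (log2 fold change 0.16 ± 0.15, adjusted p = 0.42), and *Ptprc*, which encodes its CD45, 93.9, 99.3, 108 and 96.4 FPKM at 0 hr and 133, 139, 98.7 and 89.9 at 6 hr (log2 fold change 0.19 ± 0.16, adjusted p = 0.358). Both overlapped between the times. *Cd44*, a receptor of hyaluronan, measured 8.61, 9.69, 11.4 and 6.29 FPKM at 0 hr and 57.3, 41.7, 35 and 31 at 6 hr (log2 fold change 2.07 ± 0.34, adjusted p = 3.72e-05), without overlap.

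Markers of other blood cells moved with the response. Of 14 monocyte markers 9 rose and 0 fell by limma, with 0 lower at an unadjusted p under 0.05 and a median of 2.25. *Plac8* measured 64.3, 35.5, 68.1 and 39.1 FPKM at 0 hr and 1801, 1285, 695 and 672 at 6 hr (log2 fold change 4.33 ± 0.41, adjusted p = 1.58e-08) and *Ly6c2* 46.7, 53, 109.9 and 30 FPKM at 0 hr and 838, 763, 306 and 378 at 6 hr (log2 fold change 3.26 ± 0.48, adjusted p = 1.01e-05). *Ccr2*, the receptor of inflammatory monocytes, measured 22.7, 28.4, 23.6 and 12.9 FPKM at 0 hr and 66, 45.5, 28.7 and 33.1 at 6 hr (log2 fold change 0.93 ± 0.37, adjusted p = 0.0482), and its call was lost without replicate 1, 3 or 4 at 0 hr or replicate 1 or 2 at 6 hr (adjusted p = 0.064 to 0.165 by limma). The call was also lost with a pseudocount of 0.1 or 0.5, no filter, quantile normalization or no trend (adjusted p = 0.0507 to 0.0599). With libraries 3 and 4 alone at 6 hr the adjusted p was 0.407. *Chil3* measured 70.7, 66.7, 183 and 40.1 FPKM at 0 hr and 480.1, 234, 116 and 100.5 at 6 hr (log2 fold change 1.30 ± 0.53, adjusted p = 0.0555), and was called higher by limma without replicate 3 at 0 hr or replicate 3 or 4 at 6 hr (adjusted p = 0.0164 to 0.041), with library medians aligned (0.0499) and with only the 8 WM libraries (0.0481). In control microglia the summed monocyte markers were 144 to 405 FPKM at 0 hr and 1633 to 3180 FPKM at 6 hr, so the rise was seen in both kinds of mice. Which cells of the sort carried these transcripts was not tested. In the WM libraries, 12 of the 14 genes had replicates 1 and 2 both above replicates 3 and 4 at 6 hr.

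Of 16 neutrophil markers 8 fell and 1 rose (median -1.80). Granule genes were high in 1 library at 6 hr. *S100a8* measured 2343, 1933, 5437 and 1473 FPKM at 0 hr and 5561, 549, 427 and 282 at 6 hr (log2 fold change -1.65 ± 0.68, adjusted p = 0.0573), and *Ngp* 793, 686, 1739.8 and 476 FPKM at 0 hr and 2092, 71.4, 80.6 and 36.9 at 6 hr (log2 fold change -2.48 ± 0.88, adjusted p = 0.0277). *S100a8* did not pass the test with all libraries, and was called lower by limma without replicate 1 at 6 hr (log2 fold change -2.60, adjusted p = 0.000595), without replicate 4 at 0 hr (-1.90, adjusted p = 0.0493), without replicate 2 of control microglia at 6 hr (-1.65, adjusted p = 0.0468) and with libraries 3 and 4 alone at 6 hr (-2.82, adjusted p = 0.00154). The call for *Ngp* was lost without replicate 3 at 0 hr (adjusted p = 0.0869) or without replicate 2, 3 or 4 at 6 hr (adjusted p = 0.0805 to 0.119). It was also lost with only the 8 WM libraries (adjusted p = 0.0534 by limma). *Ly6g*, which marks mature neutrophils, measured 4.69, 10.6, 17.1 and 3.80 FPKM at 0 hr and 0.316, 0, 0 and 0 at 6 hr (log2 fold change -3.02 ± 0.50, adjusted p = 4.26e-05). The summed neutrophil markers were 3098 to 11418 FPKM at 0 hr, and 10908, 1443, 1008 and 778 FPKM at 6 hr. Replicate 1 thus lay in the range of the untreated mice and the other 3 below it. Of 12 border-associated macrophage markers 4 were higher and 2 lower, against 19.3% and 19.5% of all genes. *Pf4* fell (log2 fold change -2.25 ± 0.52, adjusted p = 0.00131) and *Mrc1*, the mannose receptor, fell (log2 fold change -0.93 ± 0.28, adjusted p = 0.0104), while *Siglec1*, which interferon induces, rose (log2 fold change 1.81 ± 0.36, adjusted p = 0.000294). Of 12 lymphocyte markers 3 rose and 4 fell, against 19.3% higher and 19.5% lower of all genes. *Gzma*, a granzyme of natural killer cells, measured 9.73, 5.95, 4.24 and 5.70 FPKM at 0 hr and 61.8, 140.4, 69.3 and 39.6 at 6 hr (log2 fold change 3.31 ± 0.58, adjusted p = 8.02e-05), and *Cd3g*, of the T cell receptor complex, 8.88, 12.1, 3.52 and 15.1 FPKM at 0 hr and 3.38, 0.302, 3.91 and 1.89 at 6 hr (log2 fold change -1.71 ± 0.43, adjusted p = 0.00271). Markers of brain cells were low, with sums of 36.2 to 57.5 FPKM for astrocytes, 46.5 to 73.2 for oligodendrocytes, 2.59 to 10.1 for neurons and 5.90 to 9.24 for endothelium. *Gfap*, the astrocyte filament, was at most 1.26 FPKM and *Flt1* of endothelium at most 1.05. Of the 8 astrocyte genes listed, 6 were under 1 FPKM in every WM library at 0 hr and 5 at 6 hr. The astrocyte sum thus came mostly from the others. In each of these 4 lists 4 genes were tested; 0 of the astrocyte and endothelial genes passed the test by limma (1 and 0 at an unadjusted p under 0.05), 1 oligodendrocyte gene fell and 1 neuronal gene rose.

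**Figure D4:**
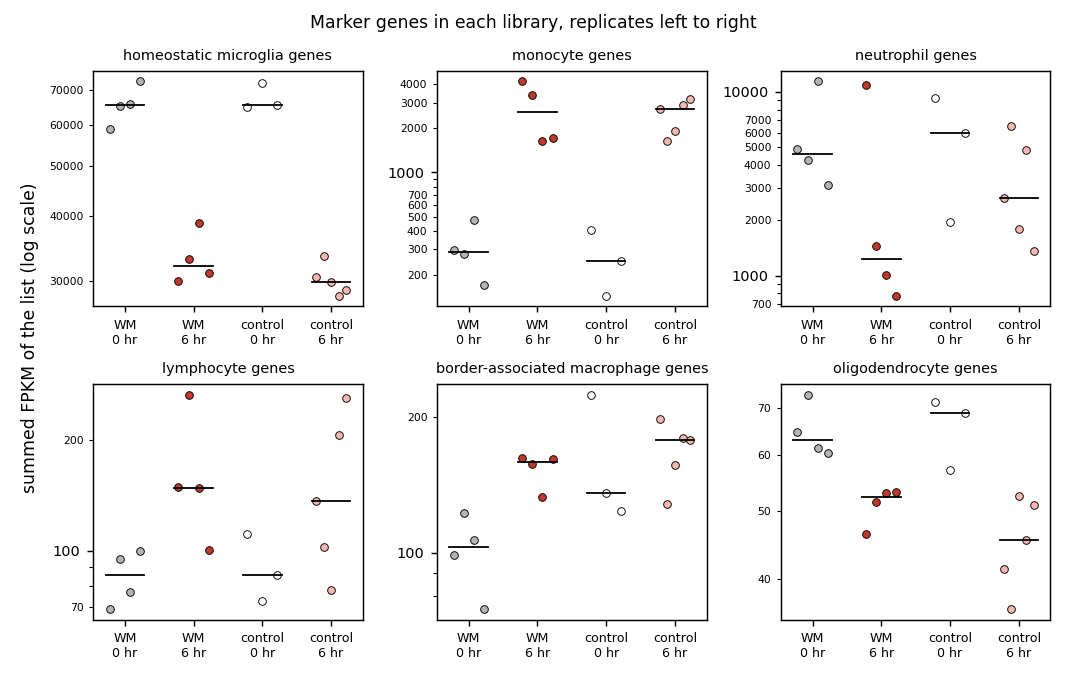
Summed level of marker genes in each library. The y axis is the sum of FPKM over each marker list on a log scale, each point is 1 library of WM repopulating cells or control microglia at 0 hr and 6 hr, and the line is the group median. Homeostatic genes fall in both kinds of cells, monocyte markers rise in both, and 1 WM library at 6 hr (replicate 1) stands at 10908 FPKM of neutrophil markers against 778 to 1443 in the other 3.

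Most genes that changed in WM repopulating cells changed in the same direction in control microglia, in a comparison that shares no library with the WM response. In control microglia 2714 genes (21.4%) were called higher and 2676 (21.1%) lower at 6 hr. Of the 4921 genes called in WM repopulating cells, 4801 (97.6%) had the same sign in control microglia, and 3755 were called the same way in both, which is 76.3% of the calls in WM cells and 69.7% of those in control microglia. The difference between the responses was tested as an interaction. It was called in 3 of 12684 genes (0.0237%) by limma, and 913 (7.2%) had an unadjusted p under 0.05, with a median SE of a difference of 0.30 on the log2 scale. Differences above 1 in size were seen in 350 genes, of which 3 passed the test. *Cspg4*, which encodes the proteoglycan NG2 of oligodendrocyte precursors and pericytes, measured 0.118, 0.177, 0.319 and 0.159 FPKM at 0 hr and 3.25, 3.93, 1.13 and 2.74 at 6 hr in WM cells and had a response of 1.59, against 0.05 in control microglia (difference 1.54 ± 0.28, adjusted p = 0.0415). *E030042O20Rik* measured 0.463, 0.216, 0.527 and 0.790 FPKM at 0 hr and 1.84, 0.949, 0.943 and 1.54 at 6 hr and had a response of 0.62, against -0.94 in control microglia (difference 1.56 ± 0.27, adjusted p = 0.0315), and since the libraries carry no strand its reads cannot be told apart from those of an overlapping gene. *Myo18b* (a myosin) was under 1 FPKM in the 8 WM libraries, with a response of -0.28, and fell in control microglia from 3.54 to 4.55 FPKM at 0 hr to 0.337 to 0.955 FPKM at 6 hr, a response of -1.63 (difference 1.35 ± 0.22, adjusted p = 0.0261). Of the groups compared, only control microglia at 0 hr reached the limit of 1 FPKM for *Myo18b*. With a pseudocount of 0.1 its WM response was -1.16 and was called lower (adjusted p = 0.0429 by limma). In the WM libraries these 3 genes were at 3.93 FPKM at most, and 0 to 3 genes were called when single libraries were left out, with 0 called without replicate 2 of control microglia at 6 hr.

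*Tnfaip3* had a response of -0.44 in WM cells and 1.13 in control microglia (difference -1.57 ± 0.81, adjusted p = 0.702), *Socs3* of 0.14 and 1.63 (difference -1.49 ± 0.76, adjusted p = 0.701), and *Nfkbia* of 0.34 and 1.15 (difference -0.80 ± 0.35, adjusted p = 0.669). Replicate 2 of control microglia at 6 hr stood above the other 4 in these genes, with 512 against 20.1 to 65.0 FPKM of *Tnfaip3*, 439 against 58.4 to 103.7 of *Socs3* and 4240 against 1063 to 1737 of *Nfkbia*. Without it the differences were -0.768, -0.997 and -0.481 on the log2 scale, with adjusted p of 0.719, 0.822 and 0.627 by limma. For *Saa3*, *P2ry12* and *Isg15* the responses were 11.77, -2.71 and 4.77 in WM cells and 12.12, -3.45 and 4.68 in control microglia. The median difference (WM minus control) was -0.12 over the interferon-stimulated genes and 0.28 over the homeostatic genes, and -0.05 and 0.15 without that library. Without replicate 3 of control microglia at 6 hr these medians were -0.29 and 0.35. In that fit 9 of 65 and 12 of 49 genes had an unadjusted p under 0.05 by limma, against 4 and 3 with all libraries. With all libraries, the NF-kB and heat shock lists had the medians farthest from 0 among the gene lists other than cell type markers, at -0.62 and -0.64. An unadjusted p under 0.05 was held by 9 of 22 NF-kB genes and 5 of 18 heat shock genes, against 7.2% of all genes, as it was by 7 of 23 integrins and adhesion genes (median difference -0.25). By limma 0 members of the 3 lists were called. Without replicate 2 of control microglia at 6 hr the NF-kB and heat shock medians were -0.44 and -0.68, with 9 and 7 genes at an unadjusted p under 0.05, and 4 integrins and adhesion genes had such a p. Over all genes 845 of 12640 had one in that fit, and the median of the glucocorticoid list was -0.47. In *Hspa1a* replicate 3 of control microglia at 6 hr stood apart, at 458 FPKM against 5.15 to 19.9 in the other 4, and without it the NF-kB and heat shock medians were -0.73 and -0.49, with 11 and 4 such genes, and 10 integrins and adhesion genes. Over all genes 1141 of 12656 had an unadjusted p under 0.05 in the fit without replicate 3. The neutrophil markers had a median difference of -0.81, with 0 of 16 at an unadjusted p under 0.05 by limma, and their part in the result was not tested.

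**Figure D5:**
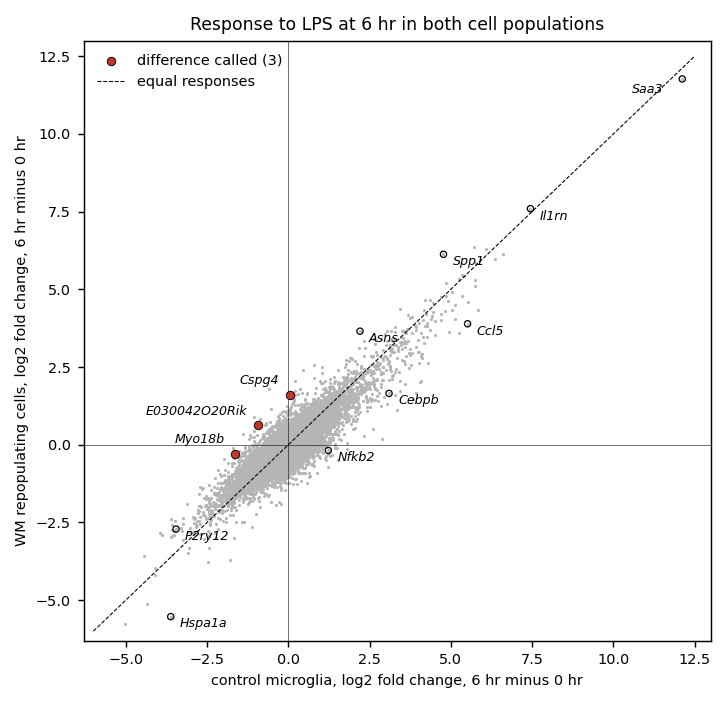
Response at 6 hr in WM repopulating cells against control microglia. Each point is 1 tested gene, with its log2 fold change in control microglia on the x axis and in WM repopulating cells on the y axis; the line marks equal responses and the 3 genes whose responses differed by limma's interaction test are named. Of the 4921 genes called in WM cells, 4801 have the same sign on both axes.

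By 24 hr after LPS, a group that is set against the same 0 hr libraries and is given here only side by side, *Saa3* measured 1046 ± 506 FPKM (mean ± SD, n = 4) and *P2ry12* 579 ± 136 FPKM. *Isg15* measured 34.9 ± 6.23 and *Il1rn* 8.99 ± 4.34 FPKM.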

How the data were processed

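RNA of sorted cells was sequenced. According to the study's methods, cDNA was made with Smart-seq2, which does not keep the strand, and libraries with Nextera reagents, and paired reads of 43 bases were aligned with STAR and counted with featureCounts; the labels describe another library protocol, made from dissected tissue. The submitters' processing notes name mm10 and give no version of these tools. The authors deposited FPKM values, counts divided by gene length and library size, in 1 table of 15285 genes for the 24 libraries of this experiment. The tables of the other experiments were not used here. Samples were grouped by their titles. The study's statistics methods count mice as n, and the libraries of a group were taken as separate mice, although the labels do not say so for each library.

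Whole reads were recovered from the steps of low values only to estimate depth. Values were set to log2(FPKM + 1), and genes at 1 FPKM or more in at least 3 of the 24 libraries (12684) were tested with limma 3.58.1 in R 4.3.3, with 1 term per group over all 6 groups, a variance trend and Benjamini-Hochberg adjustment; a gene was called at an adjusted p under 0.05. All tests were two-sided. Gene lists were described by counts and medians. Tables, motif searches and plots were made in Python 3.11.15, and promoters came from RefSeq, matched by Entrez ID for 9762 of the tested genes. The fit was tested on simulated data. The members and lists were chosen with earlier results of these data known. Named genes were the 12 largest rises and 12 largest falls without overlap, key genes of each list with its largest called rise and fall, and genes called in the difference of responses. Alternatives were other pseudocounts (0.1 and 0.5), filters, scalings, no trend, a replicate block, coding and long non-coding genes alone, fewer groups, each library left out, and, added after seeing the data, the fit without replicate 2 of control microglia at 6 hr and with WM libraries 3 and 4 alone at 6 hr. Results for some genes are not reported here.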

Additional observations from a re-analysis of the deposited data

Results flagged for a closer look

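The interaction test called 3 genes whose response differed between WM cells and control microglia, by 1.54 log2 units in *Cspg4* (adjusted p = 0.0415 by limma), 1.56 in *E030042O20Rik* (adjusted p = 0.0315) and 1.35 in *Myo18b* (adjusted p = 0.0261). Each difference is the WM response minus that of control microglia, which were 1.59 and 0.05 for *Cspg4*, 0.62 and -0.94 for *E030042O20Rik* and -0.28 and -1.63 for *Myo18b*.

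Among 350 groups of 4 libraries, 23 (6.57%) held 1 library apart from the other 3 by Dixon's test, which chance does in about 1 in 20 groups. At 6 hr, replicate 1 was apart with 714 FPKM of *Cebpb*, 32.5 of *H2-Eb1*, 0.399 of *Cxcr3*, 966 of *Cx3cr1* and 0.317 of *Ly6g*. Replicate 2 was apart with 3.48 FPKM of *Nos2* and 106.5 of *Socs3*. Replicate 3 was apart with 7.81 FPKM of *Ighj1* and with 132.7 FPKM of summed border-associated macrophage markers. Replicate 4 was apart with 1224 FPKM of *Nfkbia*, 293 of *Tlr2*, 211 of *Tsc22d3* and 3.61 of *Hspa1b*. At 0 hr, replicate 1 was apart with 0.806 FPKM of *Il1rn*, 211 of *Sdf2l1*, 119.8 of *Thrsp*, 0.609 of *Timp1* and 367 of *Tmem173*. Replicate 2 was apart with 13.2 FPKM of *H2-T22*, 950.3 of *Hspa1a* and 119 of *Itgam*, replicate 3 with 1.65 of *Ikbke* and replicate 4 with 2.21 of *Isg15*. In *Timp1*, *Ly6g* and *Ighj1* the other 3 values were 0, so that any value above 0 would have been flagged.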

How the results depend on the processing

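The counts of genes called higher (2446) and lower (2475) stayed within 1.5 times under the alternatives run, from 2310 to 2666 and 2383 to 2784 under other settings and from 2124 to 2578 and 2087 to 2629 with single libraries left out; with WM libraries 3 and 4 alone at 6 hr, an alternative added after seeing the data, 1713 and 1740 were called. No called gene of the 165 named changed direction. Of the 134 called, 122 kept the call under every alternative that tested them, and 5 lost it when a single library was left out. Of the 31 not called, 14 gained a call under at least one alternative, among them *Ccl3*, *Ccl4*, *Il6*, *Nfkbia*, *Ptgs2* and *Tnfaip3* with only the 8 libraries compared.

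The 3 genes called in the difference of responses became 1 with a pseudocount of 0.1 or 0.5, and 0 with the stricter filter, with only the 16 libraries of the 4 groups, and with the replicate block; 0 to 3 were called when single libraries were left out, and the cause was not tested. The count of subunits of oxidative phosphorylation called higher (24) ranged from 14 to 25 and that of cholesterol genes (13) from 7 to 13 when single libraries were left out. With libraries 3 and 4 alone at 6 hr these counts were 8 and 6, 5 cytokine genes were called higher (10 with all libraries) and 5 immediate early genes lower (12 with all libraries), in a fit with fewer libraries. Same-numbered libraries did not deviate together (r = -0.070, -0.001, -0.081 and 0.029 for replicates 1 to 4, and 0 of 4 matched best with their own number), so the numbers are not taken as pairs; with the replicate block 2396 genes were called higher and 2458 lower. At this depth, a gene under 1 FPKM rests on few reads.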
